A study of Homo sapiens with 18 samples.

Results

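The interleukin-1 (IL-1) cytokines and receptors were followed as 8 genes: the ligands IL1A, IL1B and IL33, the antagonist IL1RN, the receptors IL1R1 and IL1RL1, the decoy receptor IL1R2 and the shared co-receptor IL1RAP. They were chosen by name, and all 8 were found by symbol among the 57500 genes of the count table. The samples were 18 libraries of polyA RNA from IMR90, a human lung fibroblast line, with 3 libraries in each of 6 groups. Proliferating cells (Prol) were compared with cells made senescent by irradiation (Sen(IR)). In the other 4 groups irradiated cells had been cleared of their mitochondria with CCCP, an uncoupler of the mitochondrial membrane potential, and received nothing more (Sen(IR) + CCCP), sodium acetate (Sen(IR) + CCCP + acetate), transfected mitochondrial DNA (Sen(IR) + CCCP + mtDNA) or both (Sen(IR) + CCCP + mtDNA + acetate). By the study's methods, clearance works in fibroblasts that overexpress a mitophagy factor and was done soon after irradiation, acetate was given repeatedly, and mtDNA was transfected late in the culture. The labels do not state whether cells of the first 2 groups carried the same construct, or whether cells without added mtDNA received the transfection reagent. They also do not say whether the 3 libraries of a group came from separate cultures. The study's legends give n = 3 for RNA-seq heat maps of such groups and count n as independent experiments. The p-values measure the spread between these libraries.

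IL-1α (IL1A) and IL-1β (IL1B) bind the receptor IL1R1, which then recruits IL1RAP and signals through MYD88 and the IRAK kinases to NF-κB. IL1RN occupies IL1R1 without signalling, and IL1R2 binds ligand but lacks the signalling domain. IL-33 acts through IL1RL1, also called ST2, with the same co-receptor. IL-1α is active as made and can act on the cell that carries it, whereas pro-IL-1β must be cleaved, commonly by caspase-1. In senescent fibroblasts IL-1α is known as an upstream inducer of the senescence-associated secretory phenotype (SASP).

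Total counts on genes ran from 24624886 to 46224280 per library. The 13 mitochondrially encoded protein genes took 1.7457% to 2.8885% of counts in Prol and Sen(IR) and 0.0461% to 0.2368% in the 4 CCCP groups. CPM here are counts scaled to the library total after adjustment by TMM, a factor per library that edgeR estimates from the counts. They are therefore not plain shares of the total. The proliferation gene MKI67 had a mean of 59.1 CPM in Prol, 15.3 in Sen(IR), 30.4 in Sen(IR) + CCCP and 3.19 with acetate. All 10 fibroblast markers had a mean of at least 1 TPM (the authors' unit, scaled by gene length and library) in each group, with summed levels of 17600 to 19900 TPM in Prol, 10600 to 12600 in Sen(IR) and 5410 to 6900 in the 4 CCCP groups. Of 12 leukocyte and macrophage markers, AIF1 had 0 counts in the whole series and PTPRC did not exceed 0.118 TPM, with a summed level of 2.47 to 6.92 TPM per library. The 6 epithelial markers summed to 31.4 to 146 TPM, most of it KRT18, and the 4 endothelial markers to 0.178 to 2.00 TPM. The part of the falling fibroblast markers in the results below was not tested, and in bulk RNA fewer cells of a type and less RNA per cell cannot be told apart. Sen(IR) replicate 3 and the mtDNA + acetate replicate 2 stood apart from the other libraries of their groups. Their shares of counts on the mitochondrially encoded protein genes also differed from their groups. These were 2.6362% against 1.9395% and 1.7457%, and 0.2368% against 0.064% and 0.0624%. Without both libraries the number of IL-1 genes called was the same in 7 of 11 comparisons.

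IL1A and IL1B lie side by side on chromosome 2 and moved together across these libraries, while IL33 on chromosome 9 did not follow them. The stretch before the start site of each ligand is therefore shown (GRCh38.p14, from RefSeq, 5′ to 3′ on the gene's strand). Bases inside the annotated gene are left out, and matches to the motifs searched are in capitals. The IL1A window is chr2:112784494-112784743 on the minus strand, the IL1B window is chr2:112836817-112837029 on the minus strand and the IL33 window is chr9:6215557-6215785 on the plus strand.
IL1A: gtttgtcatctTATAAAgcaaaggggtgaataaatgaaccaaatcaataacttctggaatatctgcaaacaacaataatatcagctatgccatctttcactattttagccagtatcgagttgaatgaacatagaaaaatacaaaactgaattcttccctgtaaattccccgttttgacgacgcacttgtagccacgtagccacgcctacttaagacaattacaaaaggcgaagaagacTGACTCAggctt
IL1B: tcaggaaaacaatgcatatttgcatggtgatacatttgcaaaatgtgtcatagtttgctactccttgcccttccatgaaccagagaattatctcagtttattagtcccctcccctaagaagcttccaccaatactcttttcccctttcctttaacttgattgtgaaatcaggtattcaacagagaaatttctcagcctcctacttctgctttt
IL33: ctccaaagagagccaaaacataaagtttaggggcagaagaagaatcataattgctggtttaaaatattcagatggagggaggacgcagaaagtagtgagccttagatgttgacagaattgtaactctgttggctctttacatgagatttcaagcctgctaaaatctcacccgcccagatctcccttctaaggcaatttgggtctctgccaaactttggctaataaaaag

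The IL1A window held an AP-1 match (TGANTCA) at bases -12 to -6 before the start site and a TATA box (TATAAA) at -239 to -234. The AP-1 letters occurred in 6.57% and the TATA letters in 10.7% of the 35116 windows of 250 bases before RefSeq start sites, both strands being searched and no match overlapping another in this window. Neither these nor the interferon-stimulated response element core (GAAANNGAA, in 6.88% of windows) nor the NF-κB site (in 5.21%) was found in the IL1B or IL33 windows. Over all 8 genes, 9 of 17 windows held at least 1 of the 4 motifs. Some windows of the same gene overlap and share a match. The share of all windows with any of the 4 motifs was not computed, so no excess can be read from this count. A match describes letters only, and a missing match says nothing about a factor.

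IL1A (ENSG00000115008, chr2:112773925-112784493, minus strand) encodes IL-1α. Its level was 4.82, 3.62 and 3.91 TPM in the Prol libraries and 14.3, 19.3 and 14.0 TPM in Sen(IR). After mitochondrial clearance it was 1.20, 1.52 and 2.19 TPM, on 17 to 24 counts, which is under every Prol library. With acetate it was 95.8, 89.9 and 91.4 TPM, with mtDNA 3.71, 2.84 and 3.57 TPM, and with both 113, 131 and 107 TPM. Every acetate-treated library therefore lay above every Sen(IR) library, and the mtDNA libraries lay between the CCCP and Sen(IR) libraries, within or below the range of Prol.

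IL1B (ENSG00000125538, chr2:112829751-112836816, minus strand) encodes pro-IL-1β. It had 4.82, 5.07 and 4.86 TPM in Prol and 38.3, 40.7 and 40.4 TPM in Sen(IR). The CCCP libraries had 9.39, 8.02 and 10 TPM and the mtDNA libraries 12.3, 9.57 and 9.16 TPM, which overlap. With acetate it reached 105, 80.7 and 85.5 TPM, and with both 98.5, 106 and 93.2 TPM. Unlike IL1A, IL1B in the CCCP libraries stayed above all Prol libraries, by less in CPM (4.65 to 5.81 against 3.99 to 4.07).

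IL33 (ENSG00000137033, chr9:6215786-6257983, plus strand), a nuclear alarmin of stromal and barrier cells, was the scarcest ligand. It had 0 counts in all 3 Prol libraries, and 33, 16 and 14 counts in Sen(IR). It had 24, 21 and 18 counts after CCCP and 24, 21 and 23 with mtDNA, against 4, 8 and 5 with acetate and 6, 5 and 9 with both. Its mean level was 0.763 TPM ± 0.172 (SD, n = 3) in Sen(IR), 1.02 TPM ± 0.128 after CCCP and 0.215 TPM ± 0.0564 with acetate. Libraries given acetate lay below all other senescent libraries, in the direction opposite to IL1A and IL1B.

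IL1RN (ENSG00000136689, chr2:113099315-113134016, plus strand), the receptor antagonist, was close to the limit of detection and failed the filter on low counts. Its counts were 0, 0 and 2 in Prol, 5, 4 and 4 in Sen(IR), 1, 5 and 4 after CCCP, 2, 1 and 1 with acetate, 6, 6 and 15 with mtDNA, and 9, 1 and 11 with both. Summed over libraries and scaled by the TMM-adjusted totals, the mtDNA group held 3.22 times the CCCP group (95% exact interval 1.51 to 7.45). The group with both held 7.14 times the acetate group (2.41 to 28.6). These intervals cover counting error only. In a fit with no filter on low counts, IL1RN passed in the latter comparison (log2 fold change 2.63 ± 0.86 SE, edgeR adjusted p = 0.043), although replicate 2 of the group with both, at 1 count, lay among the acetate libraries. With mtDNA alone it missed the threshold (1.61 ± 0.73 SE, adjusted p = 0.226).

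IL1R1 (ENSG00000115594, chr2:102064544-102179874, plus strand), the signalling receptor, was the most abundant receptor. It had 87.0, 84.0 and 81.5 CPM in Prol, 83.4, 81.4 and 88.4 in Sen(IR) and 77.4, 75.2 and 86.8 after CCCP. These 3 groups overlap on this TMM-adjusted scale. By plain shares of counts, the lowest CCCP library (2977 of 35655026) lay above the highest Prol library (2224 of 29267536). IL1R1 had 124, 112 and 123 CPM with acetate, 129, 93.3 and 114 with mtDNA and 139, 140 and 141 with both. In TPM, IL1R1 after CCCP (56.7 to 65.6) lay above Prol (42.7 to 45.9) and Sen(IR) (45.4 to 50.5). Per length, its mean of 60.4 TPM after CCCP was above the 9.15 TPM of IL1B and the 1.64 TPM of IL1A, whereas with acetate the means were 84.6 TPM for IL1R1, 90.5 for IL1B and 92.4 for IL1A. It shares 11 exonic bases with the antisense gene IL1R1-AS1, which had 13 counts in the whole series, and whether counting used the strand is not stated.

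IL1R2 (ENSG00000115590, chr2:101991960-102028544, plus strand), the decoy receptor, was not detected above the floor of 3 counts in any library. It also failed the filter on low counts. The ratio of IL1R1 to IL1R2 could not be compared between any 2 groups, because at least 1 library of each group had 0 counts of IL1R2.

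IL1RAP (ENSG00000196083, chr3:190514051-190659750, plus strand), the co-receptor of IL1R1 and IL1RL1, had group means from 23.9 to 43.4 CPM. Its libraries had 43.9, 41.6 and 44.7 CPM in Prol, 35.3, 32.9 and 29.7 in Sen(IR) and 24.1, 22 and 25.5 after CCCP. With acetate it had 37.5, 34.4 and 37.2 CPM, with mtDNA 32.2, 28.3 and 30.4, and with both 42.3, 44 and 43.7. On this scale the CCCP libraries were the lowest of all and those with both treatments lay in the range of Prol. In TPM the CCCP libraries (10.2 to 11.8) overlapped Sen(IR) (10.4 to 12.1), and those with both (18 to 18.7) lay above Prol (13.9 to 14.4).

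IL1RL1 (ENSG00000115602, chr2:102311502-102352037, plus strand), the receptor of IL-33, followed an order of its own. It had 0.509, 0.819 and 0.672 TPM in Prol, 2.05, 2.19 and 2.59 in Sen(IR) and 11.1, 10.6 and 9.76 after CCCP. With acetate it had 9.62, 10 and 7.88 TPM, with mtDNA 19.0, 18.8 and 19.1, and with both 11.3, 9.33 and 14.2. Every CCCP group lay above Sen(IR), and the mtDNA libraries lay above all others. The gene shares 95 exonic bases with IL18R1 on the same strand, and gene counts do not separate its soluble from its membrane-bound form.

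**Figure D1:**
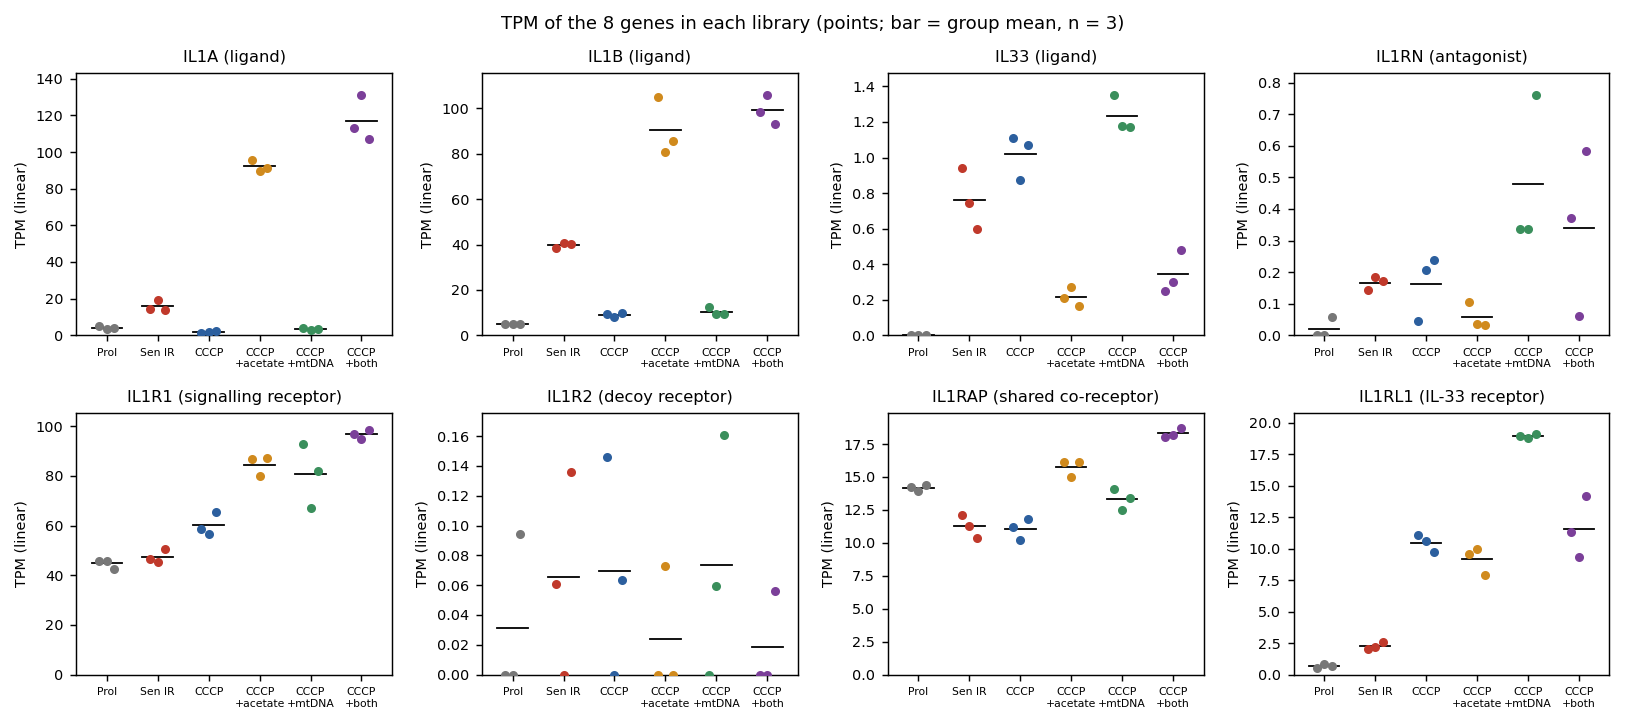
TPM of the 8 genes (vertical axes, linear, from 0) in each of the 6 groups (horizontal axes); points are libraries and bars are means of 3. IL1A and IL1B are highest in both acetate groups, where IL33 is near 0.2 to 0.5 TPM, IL1RL1 peaks with mtDNA at 18.8 to 19.1 TPM, and IL1RN and IL1R2 stay below 1 TPM.

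In Sen(IR), IL1A, IL1B and the IL-33 receptor IL1RL1 were higher than in Prol, IL33 was detected where Prol had 0 counts, and IL1R1 did not pass the threshold. In Sen(IR) against Prol, IL1A was 3.63-fold higher (log2 fold change 1.86 ± 0.15 SE, edgeR adjusted p = 1.15e-09) and IL1B 7.64-fold higher (2.93 ± 0.12, adjusted p = 1.15e-14). IL33 was at least 6.11-fold higher, set against a floor of 3 counts in each Prol library. IL1RL1 was 3.19-fold higher (adjusted p = 2.83e-07) and IL1RAP 1.33-fold lower (adjusted p = 1.83e-05). The difference in IL1R1 was 0.00 (95% interval -0.16 to 0.17). Of the 6 genes that passed the filter, 4 were higher and 1 lower, where 26.7% of the 16994 genes tested were called higher and 29.9% lower. IL33, 1 of the 4, passed the filter only through senescent groups and so had to differ from Prol, and without it 3 of 5 were higher. IL1A and IL1B are known SASP genes, and the study defined a set of SASP genes by their rise in senescence and fall after clearance. Whether that set was drawn from these libraries, or holds both genes, is not given in the sources used here.

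Mitochondrial clearance lowered both IL-1 agonists and raised IL1RL1. In Sen(IR) + CCCP against Sen(IR), IL1A was 13.2-fold lower (log2 fold change -3.72 ± 0.19 SE, adjusted p = 2.31e-13) and IL1B 5.88-fold lower (-2.56 ± 0.11, adjusted p = 2.11e-14). IL1RL1 was 3.46-fold higher (1.79 ± 0.14, adjusted p = 1.31e-10). IL33 differed by -0.05 on the log2 scale (95% interval -0.67 to 0.58) and IL1R1 by -0.08 (-0.25 to 0.09), neither past the threshold. IL1RAP was 1.37-fold lower (adjusted p = 4.04e-06). In all, 1 of the 6 genes was higher and 3 were lower, beside 34.0% and 31.3% of all genes tested. CD68, 1 of the 2 leukocyte list genes tested, also fell (-1.34, edgeR adjusted p = 0.000388), and the other did not pass. The summed leukocyte list was 2.47 to 3.85 TPM against 4.02 to 4.90. The part of CD68 in the result was not tested. The authors' TPM put the receptors differently: on that scale the median of all genes tested was 0.44 log2 units higher after CCCP, IL1R1 was 0.34 higher (limma adjusted p = 0.00216) and IL1RAP differed by -0.02 (adjusted p = 0.786), so relative to that median both lay lower. The split on that scale was 2 higher and 2 lower, beside 56.6% and 15.2% of all genes.

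Against Prol, the depleted cells separated the agonists. IL1A was 3.64-fold lower in Sen(IR) + CCCP (adjusted p = 5.18e-07), whereas IL1B was 1.30-fold higher (adjusted p = 0.0237) and IL1RL1 11-fold higher (adjusted p = 5.33e-14). IL33 was at least 6.05-fold higher on the same floor, and IL1RAP was 1.82-fold lower (adjusted p = 1.62e-10). IL1R1 did not pass the threshold (-0.08, 95% interval -0.25 to 0.09, adjusted p = 0.401). By limma on TPM it was 0.43 higher (adjusted p = 0.000314), where the median of all genes lay 0.52 higher. The counts were 3 higher, IL33 among them, and 2 lower of 6, where 35.1% and 34.1% of all genes were called. Here too IL33 passed the filter only through senescent groups and so had to differ from Prol. The difference in IL1B missed the threshold when Prol replicate 1 or 3, or CCCP replicate 1 or 3, was left out (adjusted p = 0.055, 0.0583, 0.0701 and 0.0969).

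Acetate raised IL1A and IL1B in depleted cells far above their level in Sen(IR), and lowered IL33. Against Sen(IR) + CCCP, IL1A was 61.6-fold higher (log2 fold change 5.95 ± 0.17 SE, adjusted p = 7.04e-17) and IL1B 10.6-fold higher (3.41 ± 0.11, adjusted p = 4.58e-16). IL33 was 4.31-fold lower (-2.11 ± 0.37, adjusted p = 5.99e-05). Both chains of the IL-1 receptor rose, IL1R1 1.5-fold (adjusted p = 1.69e-06) and IL1RAP 1.53-fold (adjusted p = 8.42e-08), and IL1RL1 did not pass the threshold (-0.11, 95% interval -0.35 to 0.14). Of the 6 genes 4 were higher and 1 lower, beside 28.8% and 28.3% of all genes. The 1 lower, IL33, passed the filter only through senescent groups without acetate, so it was tested only because it lay higher there. The macrophage markers CD14 and CD68, the 2 tested of the 12 leukocyte list genes, were also higher with acetate. The summed list was 6.21 to 6.55 TPM against 2.47 to 3.85 after CCCP. ITGAM, SPI1 and CD3E went the other way, with 0 counts with acetate but not after CCCP. AIF1 and TYROBP had 0 counts in both groups. The part of these markers in the result was not tested.

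mtDNA raised IL1RL1, both chains of the IL-1 receptor and, among the ligands, IL1A. Against Sen(IR) + CCCP, IL1RL1 was 1.89-fold higher (log2 fold change 0.92 ± 0.11 SE, adjusted p = 3.17e-06), IL1R1 1.41-fold (0.49 ± 0.08, adjusted p = 0.000121) and IL1RAP 1.27-fold (0.35 ± 0.07, adjusted p = 0.00103). IL1A was 2.22-fold higher (1.15 ± 0.27, adjusted p = 0.00439), on 33 to 46 counts per library. IL1B (0.26, 95% interval -0.02 to 0.54, adjusted p = 0.205) and IL33 (0.36, -0.27 to 0.98, adjusted p = 0.472) did not pass. Thus 4 of 6 genes were higher and 0 lower by edgeR, where 10.7% of all genes were called higher and 7.40% lower. At an unadjusted p under 0.05 the same number, 4, passed.

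Both treatments together gave the highest levels of IL1A, IL1B, IL1R1 and IL1RAP among the CCCP groups, although not each of these passed a test against acetate alone. Against Sen(IR) + CCCP, IL1A was 79.9-fold higher (adjusted p = 1.49e-17), IL1B 12.0-fold (adjusted p = 2.1e-16), IL1R1 1.76-fold (adjusted p = 1.22e-08) and IL1RAP 1.82-fold (adjusted p = 3.44e-10), and IL33 was 2.71-fold lower (adjusted p = 0.00186). IL1RL1 was 1.21-fold higher with an adjusted p of 0.0455 and libraries that overlapped. It missed the threshold without CCCP replicate 2 or 3 or without replicate 3 of both treatments (adjusted p = 0.0589, 0.0998 and 0.282). With no library of these groups left out, it also missed by the DESeq2 Wald test (adjusted p = 0.0515). The same held in edgeR with only the groups compared (0.0764) and by limma on TPM (0.528). With IL1RL1 counted, 5 of 6 genes were higher and 1 lower, beside 30.3% and 31.4% of all genes. The 1 lower was IL33, which passed the filter only through senescent groups without acetate. CD68 (1.23, adjusted p = 0.0013) and CD14 (1.09, adjusted p = 0.0398) were higher as well, and their part in the result was not tested. SPI1, of the same leukocyte list, had 0 counts with both treatments but not after CCCP. This comparison shares its control libraries with the acetate and the mtDNA comparisons.

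Adding mtDNA to acetate gave small differences in this family. IL1A was 1.30-fold higher with both than with acetate alone (log2 fold change 0.38 ± 0.10 SE, adjusted p = 0.0155), IL1RAP 1.19-fold (adjusted p = 0.0135) and IL1RL1 1.30-fold (adjusted p = 0.0337). IL1B (0.17, 95% interval -0.02 to 0.36), IL33 (0.67, -0.26 to 1.60) and IL1R1 (0.23, 0.06 to 0.39, adjusted p = 0.0612) did not pass. The counts were 3 higher and 0 lower of 6 by edgeR, where 6.57% and 6.0% of all genes were called, and 4 genes had an unadjusted p under 0.05. These calls depended on single libraries, and by limma on TPM 0 of the 6 passed. IL1A missed the threshold without acetate replicate 2 or 3 or without replicate 2 of both treatments (adjusted p = 0.0698, 0.0596 and 0.0673), IL1RAP without acetate replicate 2 (0.0802), and IL1RL1 without acetate replicate 3 or replicate 3 of both (0.189 and 0.212). IL1B passed without acetate replicate 1 (0.30, adjusted p = 0.0277). IL1R1 passed by the DESeq2 Wald test (adjusted p = 0.0201) and, in edgeR, with DESeq2 size factors (0.0329), with no filter on low counts (0.00936), with only the groups compared (0.021), with a replicate block (0.0334) and without both libraries that stood apart (0.0432).

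Adding acetate to mtDNA changed more. IL1A was 35.9-fold higher with both than with mtDNA alone (5.17 ± 0.15 SE, adjusted p = 1.22e-16) and IL1B 10-fold higher (3.32 ± 0.11, adjusted p = 7.52e-16). IL1R1 was 1.25-fold (adjusted p = 0.00151) and IL1RAP 1.43-fold higher (adjusted p = 9.44e-07). IL33 was 3.47-fold lower (adjusted p = 0.000234) and IL1RL1 1.57-fold lower (adjusted p = 3.82e-05). These are 4 of 6 genes higher and 2 lower, beside 27.4% and 29.9% of all genes. IL33, 1 of the 2 lower, passed the filter only through senescent groups without acetate. CD14 (2.19, adjusted p = 0.0014) and CD68 (0.76, adjusted p = 0.0325) were also higher in this comparison. The summed leukocyte list was 3.6 to 6.26 TPM against 2.68 to 3.99, and AIF1 and TYROBP had 0 counts in both groups. SPI1 had 0 counts only with both treatments, and CD3E and MS4A1 only with mtDNA alone. The part of these markers in the result was not tested.

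**Figure D2:**
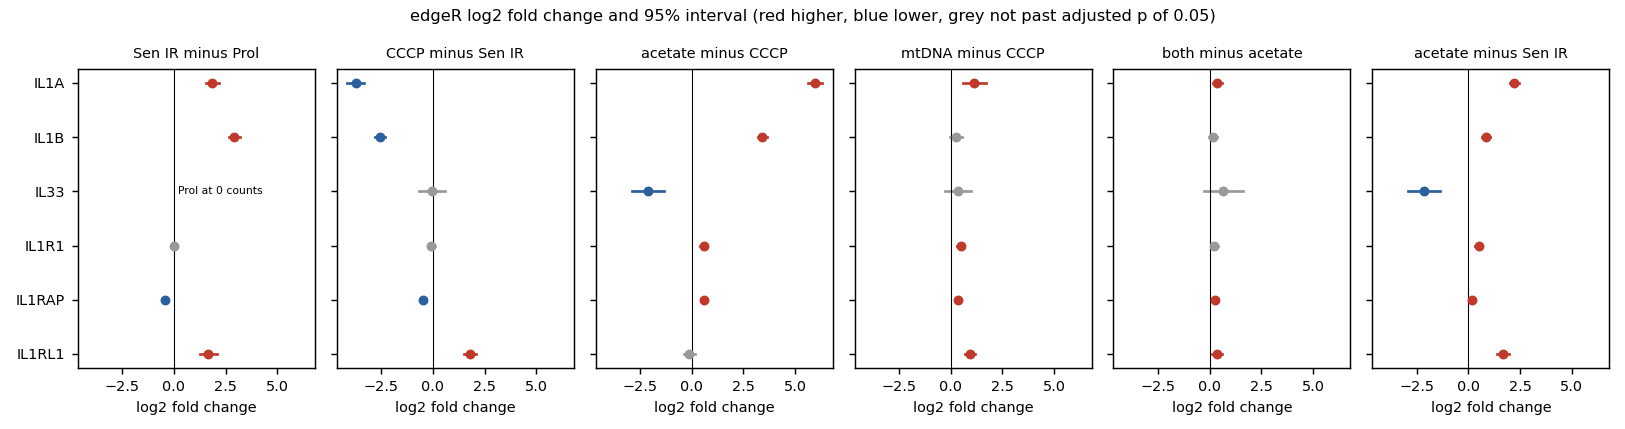
Log2 fold changes (horizontal axes) of the 6 genes that passed the filter in 6 comparisons, with 95% intervals; red is higher, blue lower and grey not past an adjusted p of 0.05, and IL33 is not drawn against Prol, where it had 0 counts. IL1A and IL1B are at 5.95 and 3.41 with acetate and at -3.72 and -2.56 after CCCP, and the intervals with both against acetate alone lie close to 0.

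The interaction of acetate and mtDNA was the effect of both minus the sum of the single effects on the log2 scale. It was called for 0 of the 6 genes by edgeR, and also by the adjusted p of the DESeq2 Wald test. The background was 0.0765% of genes higher and 0.583% lower. At an unadjusted p under 0.05, 3 genes passed, with values of -0.78 ± 0.29 SE for IL1A (adjusted p = 0.28), -0.54 ± 0.16 for IL1RL1 (adjusted p = 0.147) and -0.26 ± 0.11 for IL1R1 (adjusted p = 0.359). IL1A passed when both libraries that stood apart were left out (-0.88, adjusted p = 0.046), IL1RL1 without replicate 3 of both treatments (-0.70, adjusted p = 0.0318), and IL1R1 without mtDNA replicate 2 (-0.39, adjusted p = 0.049).

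Compared with Sen(IR), which still have mitochondria, the depleted cells given acetate had 4.67-fold more IL1A (log2 fold change 2.22 ± 0.11 SE, adjusted p = 1.56e-13) and 1.81-fold more IL1B (0.86 ± 0.09, adjusted p = 3.87e-08). IL1RL1 was 3.21-fold higher (adjusted p = 3.1e-10), IL1R1 1.42-fold higher (adjusted p = 8.72e-06) and IL33 4.45-fold lower (adjusted p = 3.45e-05). IL1RAP had an adjusted p of 0.0495 with overlapping libraries (0.15, 95% interval 0.01 to 0.29). It missed the threshold without Sen(IR) replicate 3 (0.09, adjusted p = 0.244) and without acetate replicate 1 or 3 (adjusted p = 0.0769 and 0.076). With no library of these groups left out, it also missed by the DESeq2 Wald test (adjusted p = 0.13). The same held in edgeR with DESeq2 size factors (0.0866) or only the groups compared (0.0724). The counts were 5 higher and 1 lower of 6, beside 33.2% and 32.7% of all genes. The 1 lower, here and with both treatments, was IL33, which passed the filter only through senescent groups without acetate. With both treatments the same numbers were called, where 32.2% and 34.7% of all genes were: IL1A was 6.06-fold higher (adjusted p = 1.18e-14), IL1B 2.03-fold (adjusted p = 2.32e-09), IL1RL1 4.18-fold (adjusted p = 9.94e-12), IL1R1 1.66-fold (adjusted p = 4.17e-08) and IL1RAP 1.32-fold (adjusted p = 1.43e-05), and IL33 was 2.80-fold lower (adjusted p = 0.00125).

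The balance of the 2 agonists differed in the pairs of groups compared. The ratio of IL1A to IL1B, from TPM, had a median of 0.804 in Prol (0.716 to 1.00), 0.374 in Sen(IR) (0.346 to 0.474) and 0.190 after CCCP (0.128 to 0.219). It was 1.07 with acetate (0.91 to 1.11), 0.301 with mtDNA (0.297 to 0.39) and 1.15 with both (1.14 to 1.24). Libraries did not overlap in any of the 10 pairs of groups compared. Among pairs not compared, mtDNA overlapped Sen(IR) and acetate overlapped Prol. Each of the 10 had an exact two-sided permutation p of 0.1, the smallest that 3 against 3 allows. After Benjamini-Hochberg adjustment over the 10 pairs it was 0.1 as well. By the means of the log2 ratios, the ratio with acetate lay 5.89-fold above the CCCP level, and with mtDNA 1.87-fold. With both it lay 1.14-fold above acetate alone.

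The agonists outnumbered the antagonist in every library with a count of IL1RN. The ratio of IL1A plus IL1B to IL1RN had a median of 322 in Sen(IR), 51.3 after CCCP, 4990 with acetate, 36.8 with mtDNA and 570 with both. The acetate group lay above the CCCP group without overlap (exact permutation p = 0.1, adjusted 0.16 over 8 pairs), and so did the group with both (p = 0.1). The group with both overlapped the acetate group (exact p = 0.2). Since IL1RN had 1 to 15 counts in these libraries, the ratio carries a large counting error, and only 1 Prol library gave a value, 148.

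**Figure D3:**
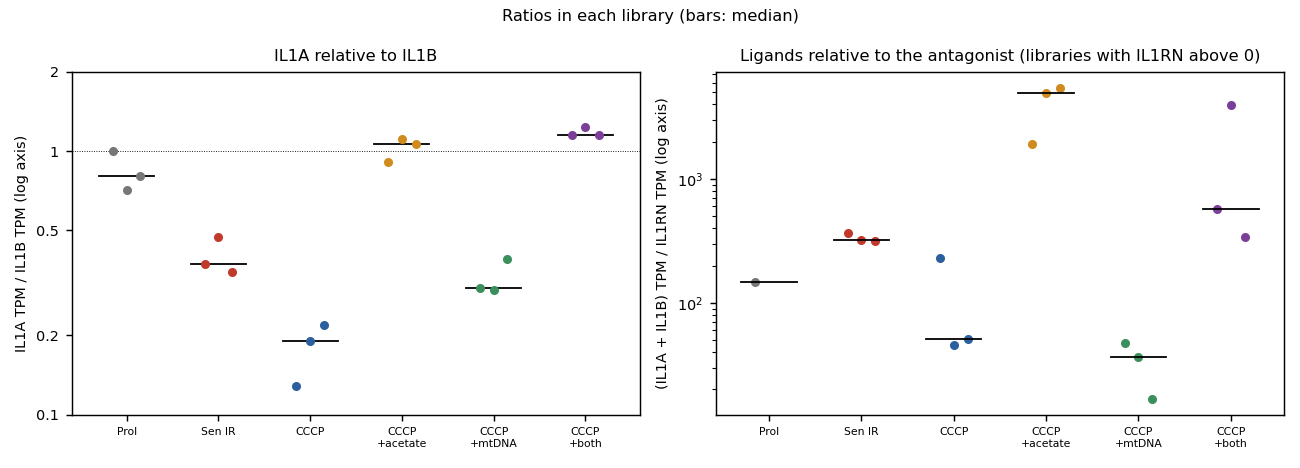
Ratio of IL1A to IL1B (left, log axis) and of IL1A plus IL1B to IL1RN (right, log axis, libraries with a count of IL1RN) in the 6 groups; points are libraries and bars are medians. The left ratio is lowest after CCCP, at 0.128 to 0.219, and near 1 with acetate; on the right, acetate has 1910 to 5480 and mtDNA 16.8 to 47.4.

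The signalling genes downstream of the receptors were followed as a list of 17, all of them tested. In Sen(IR) against Prol 3 rose and 9 fell. After CCCP 6 rose and 5 fell, or 13 and 2 by limma on TPM, where the median of all genes lay 0.44 higher. The shares of all genes tested were 26.7% higher and 29.9% lower after irradiation and 34.0% and 31.3% after CCCP, so the counts after CCCP are near the background. IRAK2, a kinase of the receptor complex, and IRAK3, an inhibitory member of the same family, went up with irradiation (log2 fold change 1.37, adjusted p = 3.36e-12, and 1.35, adjusted p = 2.64e-08) and down after CCCP (-1.42, adjusted p = 7.48e-13, and -1.64, adjusted p = 7.99e-10). With acetate 8 rose and 3 fell against CCCP (28.8% and 28.3% of all genes), IRAK3 by 1.05 (adjusted p = 1.34e-06). MYD88, the adaptor of the receptor, fell with acetate (-0.85, adjusted p = 0.000966) and rose with mtDNA (1.88, adjusted p = 1.73e-07), where 4 genes rose and 0 fell by edgeR (10.7% and 7.40% of all genes), or 2 and 0 by limma on TPM. MYD88 had a mean of 28.4 CPM ± 0.715 (SD, n = 3) after CCCP, 15.9 ± 0.87 with acetate, 105 ± 11.1 with mtDNA and 39.0 ± 20.1 with both. PELI2, a ubiquitin ligase of the receptor complex, moved opposite to IRAK2, with -1.34 (adjusted p = 2.18e-09) after irradiation and 1.57 (adjusted p = 4.92e-11) after CCCP. SIGIRR, an inhibitory receptor of the family, had 2.65 CPM ± 0.385 (SD, n = 3) in Prol and 1.08 to 1.40 CPM in the means of the other 5 groups, lower in Sen(IR) than in Prol (-1.30, adjusted p = 1.87e-05). The median log2 fold change of the list stayed between -0.21 and 0.25 in all comparisons, beside -0.04 to 0.03 for all genes tested.

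Genes of IL-1 processing and release were a list of 22, of which 19 were tested. After irradiation 2 rose and 12 fell, beside 26.7% and 29.9% of all genes. After CCCP 6 rose and 8 fell, or 10 and 5 by limma on TPM, beside 34.0% and 31.3% of all genes by edgeR. GSDMD, the pore former that lets mature IL-1β leave the cell, fell with irradiation (-1.08, adjusted p = 2.31e-06) and again after CCCP (-1.14, adjusted p = 4.68e-06), and it rose with mtDNA (0.74, adjusted p = 0.00553). CASP1, the protease of pro-IL-1β, had 42.4 CPM ± 3.13 (SD, n = 3) after CCCP and rose with mtDNA to 76.4 ± 12.9 (0.85, adjusted p = 4.38e-06). CASP4, an inflammatory caspase that cleaves GSDMD, rose by 0.40 (adjusted p = 5.98e-05). With mtDNA 6 of the 19 rose and 1 fell (9 and 1 without both libraries that stood apart, 3 and 1 by limma on TPM), where 10.7% and 7.40% of all genes were called. With acetate 6 rose and 4 fell, or 3 and 6 by limma on TPM, beside 28.8% and 28.3% of all genes by edgeR, and the edgeR counts are near that background. TXNIP, a thioredoxin-binding protein that can engage NLRP3, fell after CCCP (-2.53, adjusted p = 7.29e-13) and again with acetate (-1.60, adjusted p = 2.04e-09). NLRP3, the inflammasome sensor, was at most 0.630 CPM in the mean of any group, and its lower level in Sen(IR) than in Prol (-1.04, adjusted p = 0.0373) missed the threshold when Prol replicate 2 or 3 or Sen(IR) replicate 2 or 3 was left out (adjusted p = 0.125, 0.0758, 0.0986 and 0.102). IL18, another caspase-1 substrate, had 5 to 18 counts per group and was not tested.

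The genes that IL-1 is known to induce in fibroblasts were a list of 22, all tested. Several of them, among them IL6, CXCL8 and CCL2, are known SASP genes, and the list was drawn up with earlier results of these data known, so its directions are not independent evidence. After irradiation 20 rose and 0 fell, with a median log2 fold change of 2.97, and after CCCP 1 rose and 21 fell, with a median of -3.88. CXCL1, a neutrophil chemoattractant, had 0.342 CPM ± 0.144 (SD, n = 3) in Prol, 140 ± 12.2 in Sen(IR) and 0.106 ± 0.0923 after CCCP. Acetate raised 17 and lowered 3 against CCCP (median 1.28), and mtDNA raised 14 and lowered 0 (median 0.88). With acetate the highest log2 fold changes were those of CXCL8 (4.70, adjusted p = 7.04e-17), ICAM1 (4.37, adjusted p = 1.13e-15) and CSF2, a myeloid growth factor (3.59, adjusted p = 3.59e-14), and with mtDNA that of IL6 (1.81, adjusted p = 5.3e-10). Adding mtDNA to acetate raised 11 and lowered 1, or 7 and 1 by limma on TPM. TNFAIP3, a feedback inhibitor of NF-κB, was among those that rose (1.10, adjusted p = 3.45e-06). Without both libraries that stood apart the edgeR counts were the same. The shares of all genes called higher and lower were 26.7% and 29.9% after irradiation, 34.0% and 31.3% after CCCP, 28.8% and 28.3% with acetate, 10.7% and 7.40% with mtDNA, and 6.57% and 6.0% with mtDNA added to acetate. The medians of all genes tested lay between -0.04 and 0.03.

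Unlike IL1A and IL1B, most targets lay below their level in Sen(IR) with acetate or both treatments. IL33 also lay below it in those groups, but did not differ past the threshold after CCCP alone. With acetate 2 of 22 were higher than in Sen(IR) and 18 lower (median -1.86), and with both 4 were higher and 17 lower (median -1.27), beside 33.2% and 32.7%, and 32.2% and 34.7%, of all genes. IL6 had 358 CPM ± 28.7 (SD, n = 3) in Sen(IR), 18.2 ± 0.396 after CCCP, 124 ± 18.2 with acetate and 213 ± 37.8 with both, so with acetate it lay 1.53 log2 units under Sen(IR) (-1.53, adjusted p = 3.41e-11). CXCL8, which attracts neutrophils, lay at -1.05 (adjusted p = 1.66e-08). CCL2, which attracts monocytes, had 240 CPM ± 25.9 in Sen(IR), 4.34 ± 0.542 after CCCP and 2.15 ± 0.859 with acetate (-6.87 against Sen(IR), adjusted p = 7.35e-17). The 2 targets above Sen(IR) with acetate were MMP1, a collagenase (0.75, adjusted p = 4.3e-09), and BIRC3, an inhibitor of apoptosis (0.26, adjusted p = 0.00535). The interaction of acetate and mtDNA was lower than 0 in 5 of the 22 targets and higher in 0, with ICAM1, an adhesion molecule, at -1.11 (adjusted p = 0.00735) and IL6 at -1.04 (adjusted p = 0.00249). Without both libraries that stood apart, 9 were lower.

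**Figure D4:**
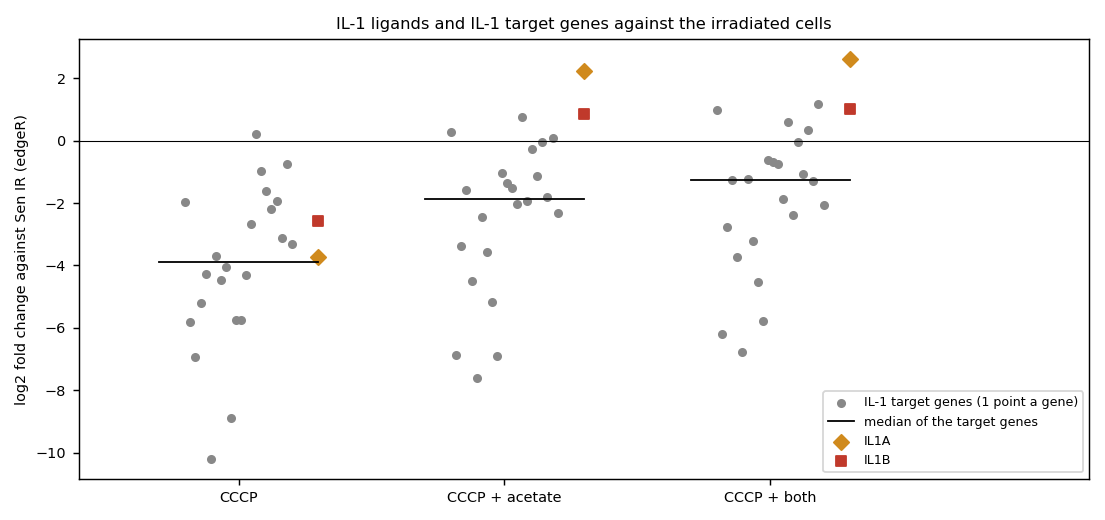
Log2 fold change against Sen(IR) (vertical axis) of the 22 IL-1 target genes (grey points, bar at the median) and of IL1A and IL1B in Sen(IR) + CCCP and in the same cells given acetate or both treatments. IL1A and IL1B fall with the targets after CCCP; with acetate they are at 2.22 and 0.86 while the median of the targets is -1.86.

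Of the other 13 members of the IL-1 family, 4 passed the filter. The receptor genes lie in a cluster of 460606 bases from IL1R2 to IL18RAP on chromosome 2 (chr2:101991960-102452565), with 12 genes in the count table. Besides IL1R1 and IL1RL1, IL18R1 and IL1RL2 were tested there, and they did not share one pattern. IL18R1, the receptor of IL-18, fell with irradiation (-1.10, adjusted p = 1.23e-06), rose after CCCP (1.74, adjusted p = 2.2e-10), with acetate (1.06, adjusted p = 1.88e-08) and with mtDNA (0.53, adjusted p = 0.00159). IL1RL2, the receptor of the IL-36 cytokines, fell with acetate (-1.30, adjusted p = 8.14e-05) and rose with mtDNA (0.77, adjusted p = 0.0125). The latter missed the threshold without CCCP replicate 2 (0.62, adjusted p = 0.0765) or mtDNA replicate 3 (0.69, adjusted p = 0.0605). In the ligand cluster from IL1A to IL1RN (chr2:112773925-113134016), with 15 genes in the table, IL1A and IL1B were the 2 that passed the filter, and IL36B had at most 3 counts in any group.

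Across the 18 libraries, log2(CPM + 1) of IL1A and IL1B correlated with a Pearson r of 0.951, IL1A and IL1R1 with 0.721, and IL33 and IL1RAP with -0.731. These are descriptions over libraries that fall into 6 groups. Among the genes most like IL1A were AL353653.1 (r = 0.99), SEMA6D (0.987) and NAB1 (0.984), and among those most like IL1B were AKR1B1 (0.993) and TOR1AIP2 (0.983). For IL33 they included NDFIP1, SEC11C and NEK11 (0.977, 0.968 and 0.967), for IL1R1 ALPK1, ETV5 and KLF9 (0.954, 0.945 and 0.941), for IL1RAP TRIM6, TMEM123 and BEX4 (0.967, 0.957 and 0.945), and for IL1RL1 GK and HSPA9 (0.987 and 0.986).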

How the data were processed

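RNA-seq libraries of 6 groups of IMR90 cells were grouped by their titles, 3 per group. Per the labels, the authors' tools were STAR 2.5.2b (alignment to GRCh38), Trimmomatic 0.36 (trimming) and featureCounts of Subread 1.5.2, and the authors deposited raw counts per gene. The authors also deposited TPM, which scale by gene length and library. The strand setting is not given in the sources used here. From the counts, edgeR 4.0.16 (R 4.3.3) fitted 6 group means over 18 libraries by quasi-likelihood, with TMM and filterByExpr (16994 genes tested). CPM used the library totals adjusted by the TMM factors. A gene was called at a Benjamini-Hochberg adjusted p under 0.05 over all genes tested. Levels of different genes and ratios used TPM, with exact permutation tests. Alternatives were DESeq2 1.42.0, other scaling and filters, single libraries left out, a replicate block and, chosen after seeing the data, limma 3.58.1 on log2(TPM + 0.1) and both libraries that stood apart left out. The scripts were tested on simulated data. The members and lists were chosen with earlier results of these data known. Named genes were all 8 members, NLRP3, CASP1, IRAK2, IRAK3, IL18, IL18R1, IL1RL2, SIGIRR, IL36B and GSDMD, the 3 genes most correlated with each member (some are not reported here), tested cluster neighbours, and genes from the 3 largest called changes of each list in a comparison. Which of the latter to name was decided with their values seen, as were CXCL8, MMP1, BIRC3 and IL6 against Sen(IR). MKI67, CDKN1A and LMNB1 were named as genes of cell state. Each SE of a log2 fold change was its absolute value divided by the square root of its edgeR F statistic, and its interval was built from that SE. The exact intervals and the floors cover counting error only, and the intervals of log2 fold changes also cover the spread between libraries.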

Additional observations from a re-analysis of the deposited data

How the results depend on the processing

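For the 6 genes tested, 1014 of the values under alternatives kept direction and call, 44 lost the call, 13 gained it and 8 changed sign. The changes of sign were in values near 0 that no edgeR fit called: IL33 after CCCP (-0.19 to 0.17 when single libraries were left out, 0.17 without Sen(IR) replicate 1 and 0.07 without CCCP replicate 2, and 0.39 by limma on TPM), IL1R1 after CCCP by limma on TPM (0.34 against Sen(IR) and 0.43 against Prol, where the median of all genes shifted by 0.44 and 0.52), IL1RL1 with acetate (-0.15 to 0.02) and the IL1B interaction (-0.18 to 0.05, at 0.03 without acetate replicate 1 and 0.05 without mtDNA replicate 1). By limma on TPM, 56.6% of all genes were higher and 15.2% lower after CCCP against Sen(IR), 60.4% and 16% against Prol, and 22.0% and 33.9% with acetate against CCCP. The number of genes called with both treatments against acetate, 3, became 1 by a DESeq2 rule of nominal p under 0.05 and a log2 fold change over 0.5, 5 with no filter on low counts, 5 without both libraries that stood apart, 0 by limma on TPM, and 1 to 5 when single libraries were left out. That rule gave 2 for mtDNA against CCCP. The interaction, 0 by edgeR, became 2 by that rule, 1 with no filter, 1 without both libraries that stood apart and 0 to 1 when single libraries were left out. The log2 ratio of agonists to IL1RN with acetate against Sen(IR), 3.48, became 2.5 with 0.1 added to each TPM. The cause of these differences was not tested. Same-numbered libraries did not pair (median correlation of deviations 0.00776, 2 of 45 above 0.1, and 8 of 18 libraries closest to their own number). With a replicate block IL1RL1 with both treatments against CCCP missed the threshold (0.27, edgeR adjusted p = 0.0582), IL1R1 with both against acetate passed (0.23, adjusted p = 0.0334), and no count of genes called moved by over 1.5 times. Depth limits IL1RN, IL1R2 and IL33, which had 33 counts or fewer in every library.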
